A study of Rattus norvegicus with 8 samples.

Results

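The response of ASCs from PVG rats to LPS was measured on 4 of the 8 Illumina RatRef-12 arrays of the series, taken because their labels give the strain as PVG. ASCs are adipose-derived mesenchymal stem cells, fibroblast-like cells that grow out of the stroma of fat tissue, here from the inguinal and interscapular depots. The ASCs of 3 PVG rats, 8 weeks old, were divided among 4 conditions. PVG-LPS ASCs were cultured for 24 h or 48 h with 1 µg/ml of LPS, and PVG-C ASCs received PBS, the vehicle, for the same times. The RNA of the 3 rats was pooled before hybridisation, so that each condition and time point was 1 array, and no array shows the spread between rats. The same design in ASCs of LEW rats (LEW-LPS and LEW-C), the strain that the study set against PVG for its acute graft rejection, gave the other 4 arrays. LPS and control arrays were paired within each time point, and the values below are given for 24 h first and 48 h second. Each array's signals were brought to the same 75th percentile and compared on the log2 scale. A probe was tested if its detection p, the authors' measure of signal over the negative controls, was under 0.05 on both PVG-LPS or both PVG-C arrays, which kept 9005 of 22523 probes and 6655 named genes, each represented by its brightest probe.

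LPS is the endotoxin of the outer membrane of Gram-negative bacteria. LBP and CD14 hand it to TLR4 on the cell surface, which signals through the adaptor MyD88 and releases NF-kB, a transcription factor that the inhibitor IkBα holds in the cytoplasm. NF-kB switches on genes of chemokines, cytokines, adhesion molecules and acute-phase proteins, and also its own inhibitors, IkBα among them, which close a feedback loop. Mesenchymal stem cells are known to answer to LPS in this way and are studied for their capacity to dampen T cells through prostaglandin E2 and other secreted factors.

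PVG-LPS ASCs expressed more of chemokines, NF-kB inhibitors, metal-binding proteins and glycolytic enzymes than PVG-C ASCs, and less of several cytoskeletal and cell surface genes. Ccl20, which encodes a chemokine for CCR6-bearing lymphocytes and dendritic cells, had scaled signals of 2180.2 and 3520.1 in PVG-LPS ASCs, against 92.0 and 104 in PVG-C ASCs. Lcn2, the gene of a protein that binds the iron carriers of bacteria, had 894 and 3535 in PVG-LPS ASCs, against 66.0 and 81.0 in PVG-C ASCs. Cxcl1, a neutrophil chemokine gene, had 1804 and 1065 in PVG-LPS ASCs, against 83.9 and 80.9 in PVG-C ASCs. For all 3 genes both LPS arrays lay far above both control arrays. Ccl20 was 28.3-fold higher (4.82 ± 0.14 on the log2 scale, SE, adjusted p = 1.26e-07, limma with Benjamini-Hochberg adjustment, n = 2 arrays per group), Cxcl1 16.8-fold higher (adjusted p = 1.09e-06), and Lcn2, undetected in PVG-C ASCs, at least 22.0-fold higher (log2 difference 4.60, adjusted p = 0.00326). Such a lower bound sets the mean log2 signal of the LPS arrays against the lowest detected signal of each control array, or the probe's own if that was higher.

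In all, 140 of the 9005 probes were higher in PVG-LPS than in PVG-C ASCs (1.55%) and 100 were lower (1.11%) at an adjusted p under 0.05. By gene, 119 of 6655 rose (1.79%) and 81 fell (1.22%), while 38 of the passing probes had no gene symbol. The genes that rose did so by 1.43-fold to 28.3-fold, with a median of 1.93-fold, and 56 of them reached 2-fold and 10 reached 4-fold. The genes that fell did so by 1.42-fold to 2.94-fold, with a median of 1.58-fold, and 7 reached 2-fold. All 200 genes moved the same way at both time points. The test sets their mean against the gap between the 24 h and 48 h differences, so no gene with opposite signs could have passed. Of the 119 genes that rose, 98 were detected on all 4 PVG arrays and 10 on neither control array, and all 81 genes that fell were detected on all 4. Those 10, Lcn2, Ccl12, Cxcl6, Pf4, Il1b, Pla2g2a and Stc1 among them, were tested only because both LPS arrays detected them. Their adjusted p-values compare LPS signals with the background. These genes also add to the rises counted in the lists below.

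**Figure D1:**
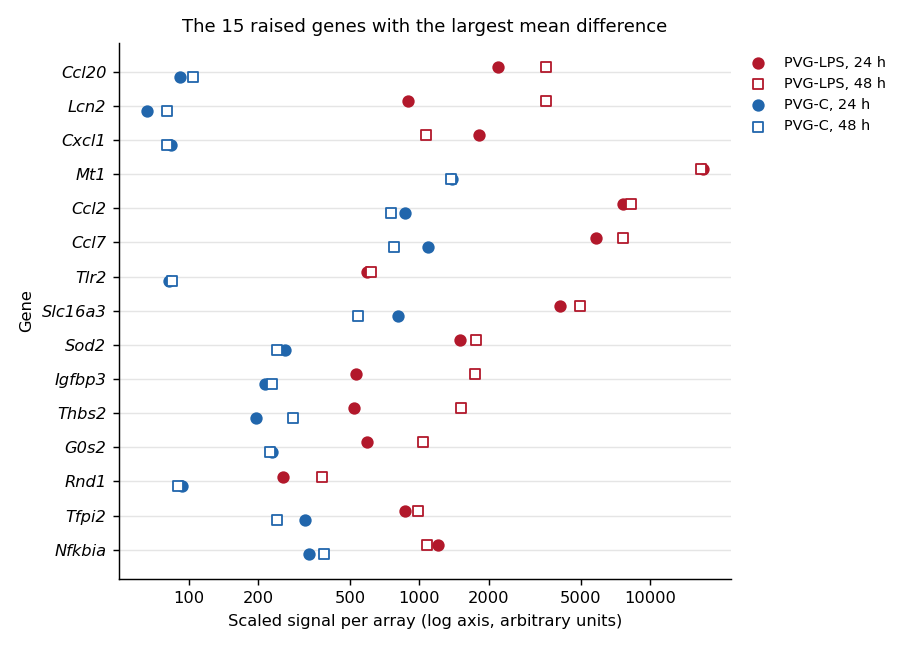
Scaled signals (log axis) of the 15 genes with the largest rise among those passing the test, for the PVG-LPS arrays and the PVG-C arrays at 24 h and 48 h, 1 point per array of pooled RNA from 3 rats. In each gene both LPS points lie to the right of both control points, from Ccl20 at the top (log2 difference 4.82) to Nfkbia at the bottom (1.68).

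The p-values rest on 2 residual degrees of freedom shared with the LEW arrays and measure how far the 24 h and 48 h responses of pooled cells lay apart, not the spread between rats. Leaving out a PVG array keeps only the PVG pair of the other time point, so that the spread then comes from the LEW arrays alone. Passing in such a fit does not measure agreement between the PVG time points. Without the time point as a block, 27 probes rose and 3 fell. Without the PVG-LPS or the PVG-C array of 24 h the counts were 27 and 4, and without either of those of 48 h they were 7 and 0. Ccl20, Tlr2, Ccl2, Cxcl1, Mt1 and Nfkbia passed in each of these fits, the only ones of the 79 passing genes named here or in the plots that did so without either 48 h array. Ccl7, Sod2, Tnip1, Slc16a3, G0s2 and Vcam1 kept it without the block and without either 24 h array and lost it without a 48 h array, and Olfml2b was the only gene that fell to keep its call without either 24 h array. With quantile normalization 136 probes rose and 67 fell, and with the background removed by neqc 137 rose and 58 fell, so that passing probes were 58.3% rises in scaled signals, against 67.0% and 70.3% in these settings. The signals hold the background of the array, 74.99 to 87.3 for the dimmest detected probe of each PVG array, which makes folds of dim genes too small: with neqc the fold was 58.3 for Ccl20, 67.6 for Lcn2 and 42.5 for Cxcl1.

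The cells showed the markers of ASCs at both times. Thy1, Nt5e, Pdgfra and Vim, the defining mesenchymal markers, were detected on all 4 PVG arrays, and none of 15 mesenchymal markers passed the test, with summed signals of 46700 and 50050 in PVG-LPS ASCs against 51720 and 54700 in PVG-C ASCs. Ptprc (CD45), a defining leukocyte marker, was undetected on all 4 arrays, as were 11 of the 15 macrophage and leukocyte markers with a probe. Their summed signals were 1173 and 1202 in PVG-LPS ASCs and 1051 and 1158 in PVG-C ASCs. Cdh5 of endothelium and Adipoq of mature adipocytes were undetected on all 4 arrays too, as were 6 of 11 endothelial and 5 of 8 adipocyte markers with a probe. Other markers were detected at low signals. Egfl7 and Cldn5 of endothelium and Fcer1g of leukocytes were detected on all 4 arrays. Fcer1g had 158 and 193 in PVG-LPS ASCs, against 131 and 131 in PVG-C ASCs. Itgam of leukocytes and Cidec of adipocytes were detected on both PVG-LPS arrays and 1 PVG-C array. In all, 3 leukocyte, 3 endothelial and 2 adipocyte markers were detected well enough to be tested. No marker of another cell type passed. In pooled RNA, a change in the number of cells of a kind and a change in RNA per cell cannot be told apart. The 4 arrays detected 9017 to 9477 probes each, and 0 of 13 reference genes passed in limma (1 at an unadjusted p under 0.05, and 0 with neqc or quantile normalization), with a median log2 difference of 0.00 (-0.02 over all genes).

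A motif that NF-kB is known to bind was looked for in the promoters of the genes that rose, the 250 bases before and 50 after each gene's start in RefSeq (build GRCr8). Written GGGANTTNC and searched on both strands, it was found in 9 of the 88 rising genes with a promoter in the table (10.2%), in 2 of 66 falling genes (3.03%), in 271 of all 5595 tested genes with a promoter (4.84%) and in 1396 of all 33469 promoters (4.17%). A match is a description of letters and not a site shown to be used, and the promoters of the array's transcripts may start elsewhere. The windows below show it, in capitals, in the genes of receptors, inhibitors, chemokines and adhesion molecules to which the results return. They read 5′ to 3′ along each gene's strand, and the second window of Nfkbia holds the motif on the opposite strand. Cxcl1, Tlr2, Nfkbia, Tnip1, Vcam1 and Cxcl6 lie on the minus strand and Nfkbiz, another IkB family gene that was chosen after its values were seen, on the plus strand.
Cxcl1, chr14:17479387-17479415: cctgtgctccGGGAATTTCcctggcctgg
Cxcl6, chr14:17596487-17596515: tccaaggcccGGGAATTTCcccagcatct
Nfkbiz, chr11:58251698-58251726: tttttggcctGGGAATTTCcagcgtgtgg
Tlr2, chr2:171504744-171504772: aggcccttggGGGAATTCCcatacggagc
Tnip1, chr10:39585028-39585056: tccatcatggGGGAATTCCcctcctgcct
Vcam1, chr2:206742858-206742886: tccccttgaaGGGATTTCCctccgcctct
Nfkbia, chr6:78597169-78597197: gctcatcgtaGGGAGTTTCtctgatgaac
Nfkbia, chr6:78597084-78597112: gactggcttgGAAATTCCCcgcgcctgac
Cxcl1, Cxcl6 and Nfkbiz carried the same 9 letters, and so did Tlr2 and Tnip1, in which they also read as the motif on the opposite strand, shifted by 1 base. Kif23, a gene that fell, carried the same 9 letters as Vcam1. Its window is not shown, nor are those of Sap30l, which also fell, and of Gng11 and Slc11a2, which rose. In Cxcl1, Cxcl6, Tnip1 and Vcam1 the motif began 84 to 93 bases before the gene's start, in Tlr2 205 bases before it, and in Nfkbia 115 and 30 bases before it.

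Among the genes of TLR receptors, co-receptors and adaptors, Tlr2 changed most. Tlr2, the receptor gene for bacterial lipoproteins, had 592 and 616 in PVG-LPS ASCs, against 82.7 and 85.2 in PVG-C ASCs. Both LPS arrays were high and nearly level, and the 48 h control array did not detect it (7.20-fold higher, 2.85 ± 0.11 on the log2 scale, SE, adjusted p = 6.67e-07). Cd14, the co-receptor that passes LPS to TLR4, had 346 and 322 in PVG-LPS ASCs, against 215 and 242 in PVG-C ASCs and was higher by 0.55 on the log2 scale, close to the threshold (adjusted p = 0.0461). Its call was lost without the time block, with neqc or without any PVG array. Tlr4 itself was at the background on all 4 arrays, with 73.9 and 74.3 in PVG-LPS ASCs, against 70.01 and 74.2 in PVG-C ASCs, none of them detected, and the adaptor gene Ticam2 was undetected too. Myd88 was detected throughout with 212 and 218 in PVG-LPS ASCs, against 243 and 184 in PVG-C ASCs, a log2 difference of 0.02 that did not pass (adjusted p = 0.96). The array's annotation names no probe for Ly96, Ticam1 or Tirap, which were not analysed here. Lbp, an LPS carrier of plasma, had 1833 and 5422 in PVG-LPS ASCs, against 1197 and 1489 in PVG-C ASCs, with differences of 0.62 at 24 h and 1.86 at 48 h that lay too far apart to pass (adjusted p = 0.0671). Ripk2, the kinase gene of the NOD receptors, rose by 0.73 by its brighter probe (adjusted p = 0.0332), while its other probe did not pass. Of 13 genes of TLR receptors, co-receptors and adaptors that were tested, 3 rose and 0 fell, with a median log2 difference of 0.15.

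Several inhibitors and feedback genes of NF-kB rose. Nfkbia, which encodes IkBα, had 1206 and 1082 in PVG-LPS ASCs, against 331 and 385 in PVG-C ASCs. Tnip1, whose product works with the deubiquitinase A20 to restrain NF-kB, had 4921 and 5038 in PVG-LPS ASCs, against 1796 and 1829 in PVG-C ASCs. Irak3, the gene of a kinase-like brake on MyD88 signalling, had 275 and 312 in PVG-LPS ASCs, against 125 and 130.3 in PVG-C ASCs. In each of the 3 genes both LPS arrays lay above both controls. Nfkbia was 3.20-fold higher (1.68 ± 0.13 on the log2 scale, SE, adjusted p = 0.000123), Tnip1 2.75-fold (adjusted p = 0.000127) and Irak3 2.29-fold (adjusted p = 0.000615). Sod2, the mitochondrial superoxide dismutase gene and a known NF-kB target, had 1499.9 and 1759 in PVG-LPS ASCs, against 261 and 242 in PVG-C ASCs. Its LPS signals were several times those of the controls at both times (6.46-fold, adjusted p = 0.000122). Cebpb, a transcription factor gene that acts with NF-kB on acute-phase genes, rose 2.002-fold (adjusted p = 0.0075). Of the 18 genes of the list, 6 rose and 1 fell, with a median log2 difference of 0.30. Those outside the genes named by rule, Nfkbiz (0.75) and Zfp36 (-0.53), were picked after seeing their values. The product of Zfp36 speeds the decay of cytokine mRNAs, and its call was lost with quantile normalization and with neqc.

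Chemokine genes were among those with the largest folds. Ccl2, the main chemokine gene for monocytes, had 7615 and 8269 in PVG-LPS ASCs, against 866 and 755 in PVG-C ASCs. Ccl7, a second monocyte chemokine gene acting through the same receptor, had 5810.1 and 7637 in PVG-LPS ASCs, against 1088 and 776 in PVG-C ASCs. Ccl11, which encodes the eosinophil chemokine eotaxin, had 135 and 421 in PVG-LPS ASCs, against 78.0 and 95.0 in PVG-C ASCs. The LPS arrays of Ccl2 and Ccl7 were near each other at 24 h and 48 h, whereas for Ccl11 the 48 h LPS array was far above the other 3. Ccl2 was 9.82-fold higher (3.29 ± 0.13 on the log2 scale, SE, adjusted p = 6.67e-07), Ccl7 7.25-fold (adjusted p = 0.000122) and Ccl11 2.77-fold (adjusted p = 0.029, lost with quantile normalization). With Ccl20 and Ccl12 (at least 1.38-fold, chosen after its value was seen, undetected in PVG-C ASCs), 5 of 11 CC chemokine and receptor genes tested rose and 0 fell, with a median of 0.28. A further 10 were undetected on all 4 arrays.

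Of 8 CXC and CX3C chemokine and receptor genes tested, 6 rose and 0 fell, with a median log2 difference of 0.75. Of the 18 with a probe, 7 were undetected on all 4 arrays. Cxcl6 and Pf4 were tested only because both LPS arrays detected them, which favours rises in this count and median. Cxcl16, the ligand gene of CXCR6 on T cells, had 487 and 419 in PVG-LPS ASCs, against 236 and 198 in PVG-C ASCs. Cxcl6, another neutrophil chemokine gene, had 127 and 118 in PVG-LPS ASCs, against 58.5 and 74.7 in PVG-C ASCs, Ackr3, the gene of a receptor that scavenges CXCL12, had 177 and 196 in PVG-LPS ASCs, against 101 and 120.4 in PVG-C ASCs, and Cx3cl1, the fractalkine gene, had 115 and 143 in PVG-LPS ASCs, against 70.6 and 98.2 in PVG-C ASCs. The LPS arrays of these 4 genes all lay above their controls, but those of Cxcl6 and Cx3cl1 were close to the background. Cxcl16 rose 2.09-fold (adjusted p = 0.00237), Ackr3 1.69-fold (adjusted p = 0.00767), Cx3cl1 1.54-fold (adjusted p = 0.0192) and Cxcl6 at least 1.51-fold (adjusted p = 0.00762). Pf4, a chemokine gene of platelets and myeloid cells, was at least 1.48-fold higher (adjusted p = 0.0123). Cxcl12, the chemokine gene by which stromal cells hold blood progenitors, had differences of 0.30 at 24 h and 1.01 at 48 h and did not pass (adjusted p = 0.0974).

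Few cytokine genes moved. Il1b, which encodes interleukin-1β, had 188 and 145 in PVG-LPS ASCs, against 69.3 and 77.4 in PVG-C ASCs. It was tested because both LPS arrays detected it, while neither control array did (at least 2.04-fold, adjusted p = 0.0126 against the background). Il1rl1, the receptor gene for interleukin-33, had 6292 and 7191 in PVG-LPS ASCs, against 12162 and 11309 in PVG-C ASCs, with both LPS arrays below both controls (1.74-fold lower, adjusted p = 0.00995). Il6 and Il1a were detected only on the LPS arrays of PVG ASCs, at least 1.30-fold above the control background for Il6 (adjusted p = 0.309) and at least 1.43-fold for Il1a (adjusted p = 0.247), and did not pass. The genes of TNF, GM-CSF, G-CSF and interleukin-10 (Tnf, Csf2, Csf3 and Il10) were undetected on all 4 arrays, where Tnf had 79.9 and 78.9 in PVG-LPS ASCs, against 73.1 and 77.0 in PVG-C ASCs. In the list as a whole 1 gene rose and 1 fell of 20 tested, and 15 were undetected throughout.

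The adhesion molecules that rose were those that hold leukocytes to vessels and stroma. Vcam1, the ligand gene of the integrin VLA-4, had 365 and 469 in PVG-LPS ASCs, against 217 and 162 in PVG-C ASCs. Selp, the P-selectin gene, had 304 and 248 in PVG-LPS ASCs, against 129 and 95.6 in PVG-C ASCs. Icam1, the ligand gene of LFA-1, had 2146 and 2608 in PVG-LPS ASCs, against 1419 and 1679 in PVG-C ASCs. In all 3 genes both LPS arrays lay above both controls, with the highest signal at 48 h in Vcam1 and Icam1 and at 24 h in Selp. Vcam1 rose 2.20-fold (adjusted p = 0.00729), Selp 2.48-fold (adjusted p = 0.00188) and Icam1 1.53-fold (adjusted p = 0.03, lost with neqc). They were 3 of 18 adhesion genes tested, of which 0 fell, and the median of the list was -0.13. At both time points 4 of the 18 were positive and 7 negative. With neqc 2 rose and 1 fell, the integrin gene Itga4. Its differences in scaled signals were -0.25 at 24 h and -1.11 at 48 h and did not pass (adjusted p = 0.0861 in limma).

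Metal-binding and acute-phase genes had a median log2 difference of 0.60, and 5 of 13 tested rose while 0 fell. Mt1, the metallothionein gene, whose protein buffers zinc and copper, had 16887 and 16567 in PVG-LPS ASCs, against 1384 and 1376 in PVG-C ASCs. Its LPS arrays were level at both times, as were its controls (12.1-fold higher, 3.60 ± 0.16 on the log2 scale, SE, adjusted p = 1.09e-06). Pla2g2a, the gene of a secreted phospholipase with antibacterial action, had 133 and 158 in PVG-LPS ASCs, against 57.6 and 71.0 in PVG-C ASCs, undetected on both control arrays (at least 1.79-fold, adjusted p = 0.000615). Slc11a2, the gene of an iron importer, rose 1.54-fold (adjusted p = 0.0177), and so did Lcn2, described above, and Slc39a14, a zinc and iron importer gene chosen after its value was seen (1.52-fold). Hp, the haptoglobin gene, was detected on the LPS arrays alone, at least 1.63-fold above the control background, with measured differences of 0.35 at 24 h and 1.67 at 48 h, and did not pass (adjusted p = 0.139).

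The first enzymes of the classical complement pathway were higher as well. C1r had 2918 and 5208 in PVG-LPS ASCs, against 1231 and 1764 in PVG-C ASCs. C1s had 318 and 840.0 in PVG-LPS ASCs, against 156 and 170.0 in PVG-C ASCs. Both genes had their highest signal on the 48 h LPS array, and C1r was 2.65-fold higher (adjusted p = 0.000634) and C1s 3.17-fold (adjusted p = 0.016). Serping1, the gene of the inhibitor that stops both enzymes, had differences of 0.69 at 24 h and 1.65 at 48 h and narrowly missed the threshold (adjusted p = 0.0543), which it passed with neqc. Of 10 complement genes tested 2 rose and 0 fell, with a median of 0.27.

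Among genes of prostanoid synthesis, Ptgs2, which encodes the inducible cyclooxygenase COX-2, had 688 and 489 in PVG-LPS ASCs, against 244 and 228 in PVG-C ASCs. Both LPS arrays were above the controls, more so at 24 h (2.46-fold, adjusted p = 0.0075). With Pla2g2a it made 2 of 9 tested genes that rose. Ptgs2 and Stc1, which encodes a secreted glycoprotein with anti-inflammatory action, also stood on a list of effectors by which mesenchymal stem cells restrain immune cells, where 2 of 13 rose and 0 fell. Stc1 had 111 and 191 in PVG-LPS ASCs, against 60.1 and 75.6 in PVG-C ASCs and was at least 1.80-fold higher (adjusted p = 0.0279, lost with quantile normalization). The inducible nitric oxide synthase gene Nos2, an effector in rodent cells, was undetected on all 4 arrays, with 65.3 and 59.4 in PVG-LPS ASCs, against 50.4 and 70.1 in PVG-C ASCs.

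Of 16 tested genes of vasoactive peptides and of receptors for mediators of vessel tone 4 rose, while the median of that list was -0.02. Adora2b, a receptor gene for adenosine, had 481 and 411 in PVG-LPS ASCs, against 198 and 149 in PVG-C ASCs. Adora2a, another adenosine receptor gene, had 295 and 526 in PVG-LPS ASCs, against 137 and 155 in PVG-C ASCs. Bdkrb1, the inducible bradykinin receptor gene, had 189 and 173 in PVG-LPS ASCs, against 79.9 and 82.4 in PVG-C ASCs. All LPS arrays of these genes were above all of their controls. Adora2b rose 2.59-fold (adjusted p = 0.000617), Adora2a 2.70-fold (adjusted p = 0.0133) and Bdkrb1 2.23-fold (adjusted p = 0.000763). Adm, the gene of the vasodilator adrenomedullin, rose 2.18-fold (adjusted p = 0.0274).

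Few interferon-stimulated and antigen presentation genes passed the test, although small positive differences were common among them. Of 22 interferon-stimulated genes tested, none rose or fell in limma, and the median was 0.13. At both time points 12 of them were positive, as were 1755 of all 6655 genes. In the same list 5 genes had an unadjusted p under 0.05, all positive, and 1 passed with quantile normalization, Ifi27. Ifi27 and Ifitm3 had the smallest p of the list, with log2 differences of 0.53 (adjusted p = 0.0657) and 0.43 (adjusted p = 0.0894). Of 21 antigen presentation genes 1 rose, the class I gene RT1-A2 of the rat MHC, with 519 and 566 in PVG-LPS ASCs, against 379 and 332 in PVG-C ASCs (1.53-fold, adjusted p = 0.034, lost with neqc). RT1-A1 had a log2 difference of 0.51 that did not pass. Of the 21 antigen presentation genes, 8 had an unadjusted p under 0.05 in limma, all positive. Positive at both time points were 15 of them, and the median was 0.23. Probes of RT1 genes can bind several of these near-identical genes.

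Of 32 glycolysis and hypoxia genes tested, 12 rose, the highest number in any list, and 0 fell. The median log2 difference was 0.45 over the list, against -0.02 over all genes, and 24 of the 32 were positive at both time points. Slc16a3, the gene of the lactate exporter MCT4, had 4058 and 4938 in PVG-LPS ASCs, against 808 and 539 in PVG-C ASCs. Tpi1, a gene of an enzyme in the middle of glycolysis, had 14563 and 14681 in PVG-LPS ASCs, against 8574 and 6960.1 in PVG-C ASCs. Bnip3, a mitophagy gene that hypoxia induces, had 2042 and 1938 in PVG-LPS ASCs, against 801 and 696 in PVG-C ASCs. In all 3 genes both LPS arrays were above both controls, by 6.78-fold for Slc16a3 (2.76 ± 0.23 on the log2 scale, SE, adjusted p = 0.000233), 1.89-fold for Tpi1 (adjusted p = 0.00555) and 2.66-fold for Bnip3 (adjusted p = 0.00555). Mif, a cytokine gene that hypoxia raises, was 1.71-fold higher (adjusted p = 0.00914). Adm, Stc1 and P4ha2 rose as well. The remaining members that rose, picked after seeing their values, were the glycolytic enzyme genes Hk2 (1.52-fold), Pfkl (1.65-fold), Eno2 (1.51-fold) and Ldha (1.56-fold) and the mTOR inhibitor gene Ddit4 (2.21-fold). Members at 1.5-fold or more numbered 9 at 24 h and 17 at 48 h, with 0 that were lower by as much. Pgk1 showed the difference between the times, with 0.05 at 24 h and 0.77 at 48 h, and did not pass (adjusted p = 0.429). Without the time block 2 of the list passed, with quantile normalization 12 and with neqc 11. The glucose transporter gene Slc2a1 was undetected on all 4 arrays.

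**Figure D2:**
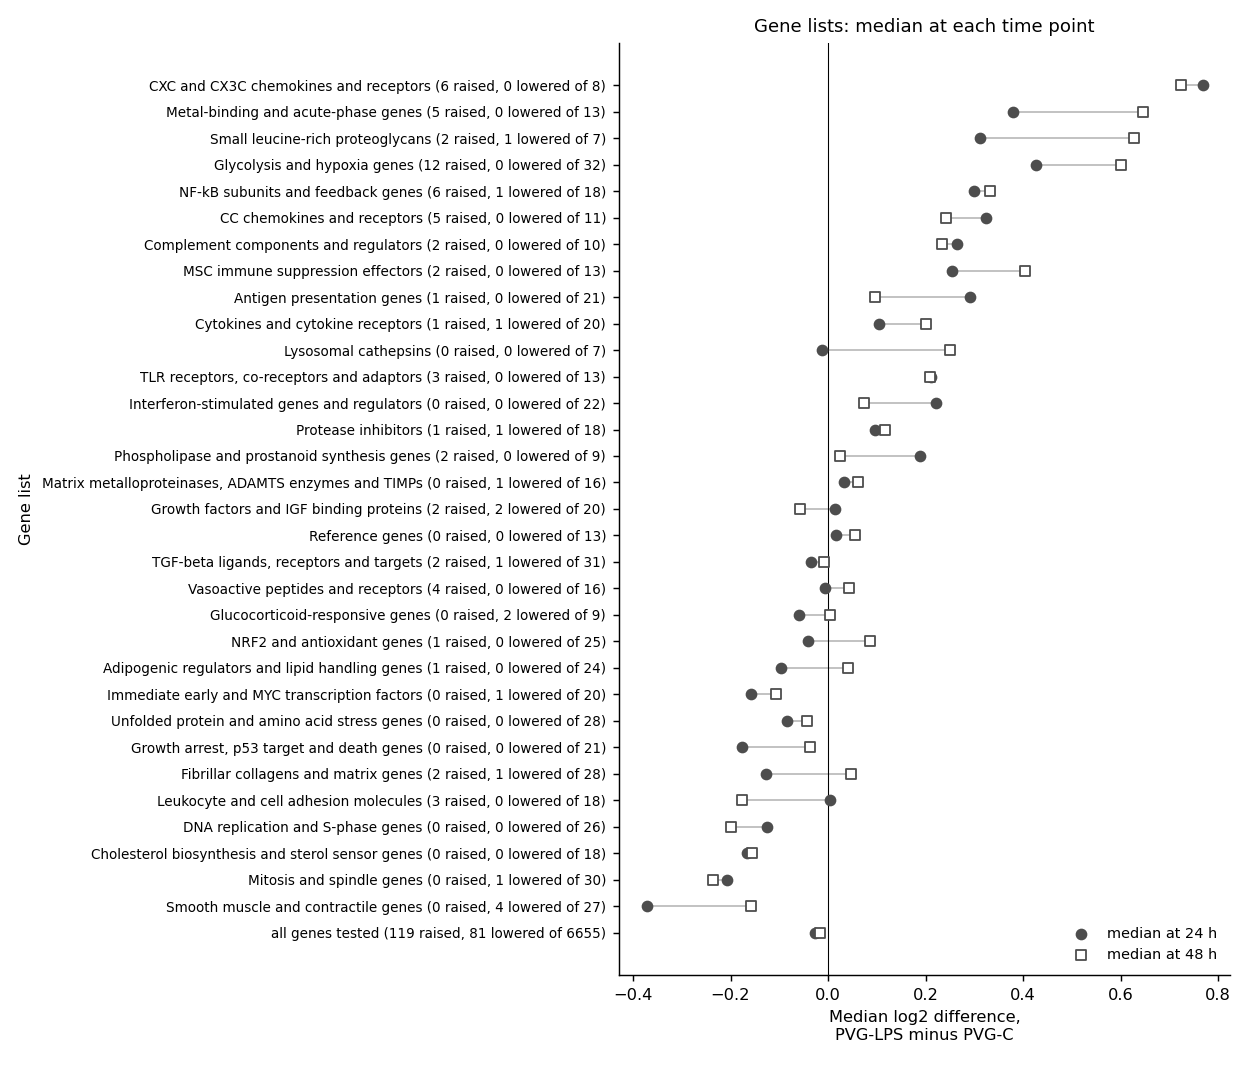
Median log2 difference of PVG-LPS minus PVG-C ASCs over the tested members of each gene list with at least 7 of them, at 24 h (filled circles) and at 48 h (open squares), joined by a line, with the number of members called beside each name. Members tested only because both LPS arrays detected them are included, which favours rises. CXC and CX3C chemokines lie farthest to the right (0.77 at 24 h and 0.72 at 48 h) and smooth muscle and contractile genes lie farthest to the left at 24 h (-0.37) but not at 48 h, where mitosis and spindle genes do (-0.24).

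Secreted proteins of the matrix and of growth control moved in both directions. Igfbp3, which encodes the main carrier of insulin-like growth factors, had 531 and 1748 in PVG-LPS ASCs, against 215 and 229.7 in PVG-C ASCs. Thbs2, the gene of the matricellular protein thrombospondin-2, had 520.1 and 1506 in PVG-LPS ASCs, against 197 and 282 in PVG-C ASCs. Dcn, the gene of decorin, had 767 and 1750.2 in PVG-LPS ASCs, against 376 and 372 in PVG-C ASCs. All 3 were highest on the 48 h LPS array, and Igfbp3 was 4.33-fold higher (2.12 ± 0.34 on the log2 scale, SE, adjusted p = 0.00995), Thbs2 3.76-fold (adjusted p = 0.0016) and Dcn 3.10-fold (adjusted p = 0.0067). Lum, which encodes lumican, a small leucine-rich proteoglycan like decorin, rose 2.83-fold (adjusted p = 0.0162), while Ogn, the osteoglycin gene of the same family, fell. Ogn had 198 and 171 in PVG-LPS ASCs, against 402 and 442 in PVG-C ASCs, both LPS arrays below both controls (2.29-fold lower, -1.19 ± 0.15 on the log2 scale, SE, adjusted p = 0.00268). Of 7 proteoglycan genes 2 rose and 1 fell, and of 28 fibrillar collagen and matrix genes 2 rose (Thbs2 and P4ha2, a prolyl hydroxylase gene of collagen) and 1 fell (Col6a1, a collagen VI chain gene, 1.89-fold lower, adjusted p = 0.0152, lost with quantile normalization and neqc). Tfpi2, an inhibitor gene of serine proteases, rose 3.35-fold (adjusted p = 0.00302), 1 of 18 protease inhibitors, of which Wfdc1 fell (1.48-fold, adjusted p = 0.0425, lost with neqc). Mmp12, the macrophage elastase gene, fell 1.52-fold (adjusted p = 0.0438, lost with quantile normalization), the only 1 of 16 metalloproteinase and inhibitor genes to pass. With neqc 2 genes of that list rose as well, Mmp3 and Mmp9, and 4 of the protease inhibitors rose while 0 fell.

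Ligands of the TGF-β family went both ways. Bmp6 rose 1.74-fold (adjusted p = 0.00759), and Grem1, the gene of a BMP antagonist, rose 2.12-fold (adjusted p = 0.00887), with 1522 and 1406 in PVG-LPS ASCs, against 747 and 636 in PVG-C ASCs. Tgfb3 had 1486 and 1326 in PVG-LPS ASCs, against 2227 and 2468 in PVG-C ASCs, and the lower LPS signals lay outside the range of the controls (1.67-fold lower, adjusted p = 0.0183, lost with quantile normalization and neqc). Together they were 2 that rose and 1 that fell among 31 TGF-β genes, with a median of -0.01. Of 20 growth factor genes 2 rose, Igfbp3 and Fgf7, a fibroblast growth factor for epithelia (1.78-fold, adjusted p = 0.0479, lost with quantile normalization), and 2 fell, the platelet-derived growth factor gene Pdgfa (1.501-fold, adjusted p = 0.0223) and the lymphatic growth factor gene Vegfc (1.60-fold, adjusted p = 0.0224), both lost with neqc. G0s2, whose product inhibits adipose triglyceride lipase, had 595 and 1039 in PVG-LPS ASCs, against 229.7 and 226 in PVG-C ASCs and rose 3.46-fold (adjusted p = 0.000617). Rnd1, the gene of a GTPase that loosens the actin cytoskeleton, had 257 and 377 in PVG-LPS ASCs, against 93.5 and 90.4 in PVG-C ASCs and rose 3.39-fold (adjusted p = 0.00378). Nfatc4, a calcineurin-dependent transcription factor gene, rose 1.60-fold (adjusted p = 0.0152).

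The genes that fell encoded, among others, proteins of the cell surface and the cytoskeleton. Olfml2b, a gene of the olfactomedin family of secreted proteins, had 238 and 333 in PVG-LPS ASCs, against 608 and 1128 in PVG-C ASCs. Aoc3, which encodes a surface amine oxidase of adipose and vascular cells, had 765 and 1034 in PVG-LPS ASCs, against 1603 and 2127 in PVG-C ASCs. Fbln5, the gene of an elastic fibre protein, had 642 and 771 in PVG-LPS ASCs, against 1176 and 1807 in PVG-C ASCs. Both LPS arrays of each lay below both controls, with Olfml2b 2.94-fold lower (-1.56 ± 0.14 on the log2 scale, SE, adjusted p = 0.000513), Aoc3 2.08-fold (adjusted p = 0.00405) and Fbln5 2.07-fold (adjusted p = 0.00302). Fzd8, a Wnt receptor gene, had 423 and 561 in PVG-LPS ASCs, against 999.7 and 973 in PVG-C ASCs, and Tm4sf1, the gene of a surface protein with 4 membrane spans, had 198 and 218 in PVG-LPS ASCs, against 334 and 522 in PVG-C ASCs. For both genes the LPS arrays were the lower ones at each time, by 2.02-fold (adjusted p = 0.00365) and 2.01-fold (adjusted p = 0.00738). Cav1, the main coat protein gene of caveolae, fell 1.83-fold by its brighter probe (adjusted p = 0.00366), while its other probe did not pass. Itpr1, the gene of a calcium release channel, fell 1.89-fold (adjusted p = 0.0149), Gucy1b1, a subunit gene of the nitric oxide receptor, 1.82-fold (adjusted p = 0.0102), and Anxa8, an annexin gene, 1.98-fold (adjusted p = 0.0141). Fez1, Hip1 (by the brighter of its 2 tested probes) and Lrrfip1 fell, with log2 differences of -1.05, -0.88 and -0.86. Each of the last 6 genes lost its call with neqc, and Fez1 and Hip1 with quantile normalization too.

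**Figure D3:**
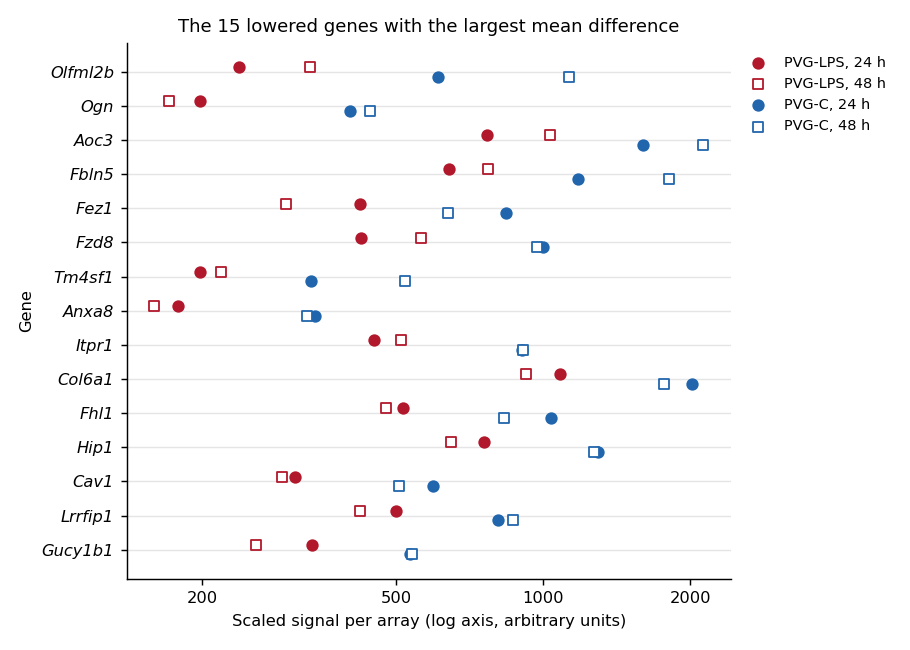
Scaled signals (log axis) of the 15 genes with the largest fall among those passing the test, for the PVG-LPS arrays and the PVG-C arrays at 24 h and 48 h. At each time point the LPS array lies to the left of its control, most for Olfml2b (log2 difference -1.56).

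Smooth muscle and contractile genes fell in 4 of 27 tested and rose in 0. The median was -0.30, against -0.02 over all genes, and 21 of the 27 were negative at both time points, as were 2284 of all 6655 genes. Fhl1, a LIM protein gene of muscle cells, had 515 and 475 in PVG-LPS ASCs, against 1039 and 832 in PVG-C ASCs. Myh10, the nonmuscle myosin IIB heavy chain gene, had 2104 and 2392 in PVG-LPS ASCs, against 3791 and 3809 in PVG-C ASCs. Actg2, the enteric smooth muscle actin gene, had 6009.5 and 7373 in PVG-LPS ASCs, against 8659.9 and 12654 in PVG-C ASCs. Both LPS arrays of each of the 3 genes lay below both controls. Fhl1 was 1.88-fold lower (adjusted p = 0.00365), Myh10 1.69-fold (adjusted p = 0.00769), Actg2 1.57-fold (adjusted p = 0.0336) and Fhl2, another LIM protein gene, 1.60-fold (adjusted p = 0.0279). The median of the list was -0.27 with quantile normalization and -0.33 with neqc, with 2 falls in each, those of Actg2 and Fhl2 being lost, and Fhl1 alone of the 4 passed without the time block.

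Mitosis and spindle genes had a median of -0.22, with 21 of 30 negative and 0 positive at both time points, but only Kif23, a kinesin gene of cell division, passed, with 272 and 115 in PVG-LPS ASCs, against 368 and 181 in PVG-C ASCs. The LPS array was below its control at each time, but the groups overlapped (1.46-fold lower, adjusted p = 0.0412, lost with quantile normalization and neqc). Of 26 DNA replication genes none passed in limma, with neqc or with quantile normalization, 6 had an unadjusted p under 0.05, all negative, and 16 were negative at both times, with a median of -0.17. Pcna, the replication clamp gene, had a log2 difference of -0.45 (adjusted p = 0.079). Among 20 immediate early and MYC transcription factor genes Klf6 fell 1.52-fold (adjusted p = 0.0202, lost with neqc), whereas Egr1 had a difference of -0.62 that did not pass (adjusted p = 0.0861). Of 9 glucocorticoid-responsive genes 2 fell. They were Dusp1, the gene of a phosphatase that switches off MAP kinases, with 3350.5 and 3799 in PVG-LPS ASCs, against 6198 and 6032 in PVG-C ASCs (1.71-fold, adjusted p = 0.0123), and Tsc22d3, the gene of the leucine zipper protein GILZ, with 555 and 588 in PVG-LPS ASCs, against 792 and 952 in PVG-C ASCs (1.52-fold, adjusted p = 0.0229, lost with quantile normalization and neqc). In adipogenic and lipid genes Cebpb was the only 1 of 24 that passed. The NRF2 and antioxidant list had 1 rise in 25, that of Sod2, and Hmox1, the heme oxygenase gene, had 0.25 at 24 h and 0.73 at 48 h without passing (adjusted p = 0.209). No gene passed among 18 of cholesterol synthesis, 28 of the unfolded protein response, 7 cathepsins, 6 of basement membranes and 21 of growth arrest and p53, with medians of -0.18, -0.10, 0.16, -0.13 and -0.10 in this order. None of them passed with neqc or quantile normalization either, and 12 had an unadjusted p under 0.05. Of these lists only the cholesterol genes had most of their members negative at both times, 13 of 18.

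At single time points there was 1 array per condition, so that no test applies and genes are counted at 1.5-fold or more. At 24 h 136 genes were higher in PVG-LPS ASCs (2.04%) and 163 were lower (2.45%). At 48 h 183 were higher (2.75%) and 97 lower (1.46%). Both time points shared 95 higher genes (1.43%) and 36 lower genes (0.541%), and no gene was 1.5-fold higher at one time and as much lower at the other. Of the 136 genes higher at 24 h, 132 were above control at 48 h as well. The 2 responses had a correlation of 0.61 over the 6655 genes, which are not independent. The excess of lower genes at 24 h depended on the scaling. By probes, 177 were higher and 217 lower at 24 h in scaled signals (44.9% higher), against 202 and 120 after quantile normalization (62.7% higher). At 48 h the split was 221 and 112, and 226 and 121 after quantile normalization. The 99th percentile of the signals was 95.6 times the median on the PVG-C array of 24 h, against 82.5 and 83.2 on the LPS arrays of 24 h and 48 h and 76.6 on the PVG-C array of 48 h. Its part in these counts was not tested.

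**Figure D4:**
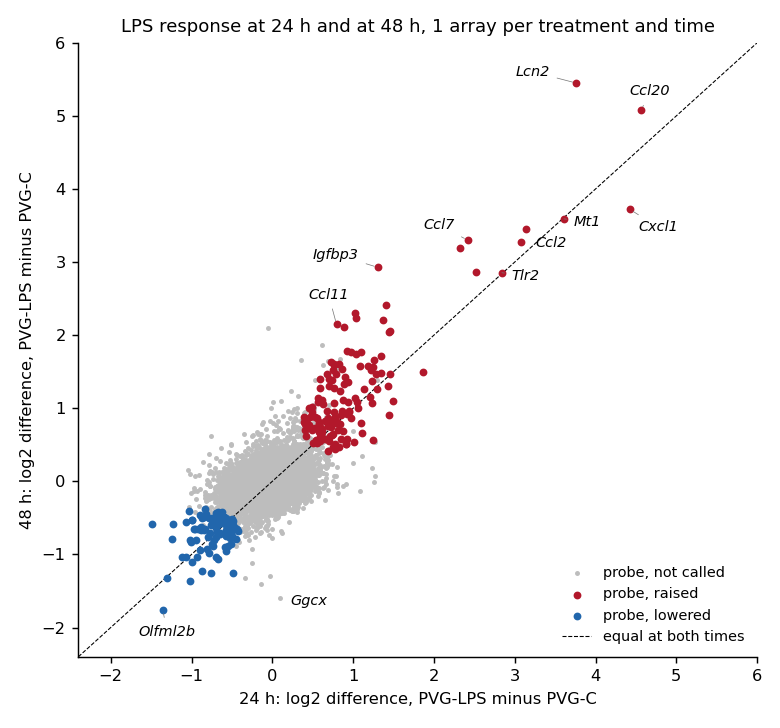
Log2 difference of PVG-LPS minus PVG-C ASCs at 24 h (x axis) and at 48 h (y axis) for each of the 9005 tested probes, with those that passed the test coloured and a dashed line of equal differences. The probes that rose lie at the upper right, Lcn2 above the diagonal (3.76 at 24 h and 5.45 at 48 h) and Cxcl1 below it (4.43 and 3.72).

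Genes that rose were mostly further from control at 48 h. This held for 88 of the 119, with medians of 0.84 at 24 h and 1.07 at 48 h on the log2 scale, and 86 reached 1.5-fold at both times, 10 at 24 h alone and 20 at 48 h alone. The widest gaps were in secreted proteins. The differences were 3.76 at 24 h and 5.45 at 48 h for Lcn2, 1.30 at 24 h and 2.93 at 48 h for Igfbp3, 0.79 at 24 h and 2.15 at 48 h for Ccl11 and 1.03 at 24 h and 2.30 at 48 h for C1s. Lbp and Hp, given above, showed the same order without passing. Early-weighted rises were smaller in number. Cxcl1 had 4.43 at 24 h and 3.72 at 48 h, Nfkbia 1.86 at 24 h and 1.49 at 48 h, Ptgs2 1.5 at 24 h and 1.10 at 48 h and Il1b 1.44 at 24 h and 0.91 at 48 h. The genes that fell had medians of -0.69 at 24 h and -0.65 at 48 h, and 36 of 81 were lower at 48 h than at 24 h. The genes with the largest excess of the 24 h over the 48 h difference did not pass. They included Rras2 and Rhoa, genes of small GTPases, with -1.04 at 24 h and 0.15 at 48 h and -0.97 at 24 h and -0.13 at 48 h, Anxa1, the gene of an anti-inflammatory annexin, with -0.97 at 24 h and -0.09 at 48 h, and the transcription factor gene Rfx1, with -1.01 at 24 h and -0.15 at 48 h. Rhoa had 841 and 924 in PVG-LPS ASCs, against 1642 and 1014 in PVG-C ASCs, where the control array of 24 h was the highest of the 4. Pacs1 and Scamp3, genes of vesicle traffic, had -0.94 at 24 h and -0.13 at 48 h and -0.80 at 24 h and -0.04 at 48 h, and Acta1, the skeletal muscle actin gene, had -0.89 at 24 h and -0.10 at 48 h. Ifi27l2b, an interferon-inducible gene, was the only 1 of this kind that was higher with LPS, with 1.11 at 24 h and 0.34 at 48 h (adjusted p = 0.0522). In the opposite order, Ggcx, the carboxylase gene of vitamin K-dependent proteins, had 0.10 at 24 h and -1.60 at 48 h, and Isca1, a gene of iron-sulphur cluster assembly, -0.03 at 24 h and -1.29 at 48 h. Neither passed.

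The responses of PVG and LEW ASCs were set side by side on the same probes, through 4 arrays each that share no array but share the estimate of spread. In LEW, 218 of the 6655 genes rose (3.28%) and 156 fell (2.34%). Of the 119 genes that rose in PVG, 83 also rose in LEW, and 114 were positive in LEW at both time points, as were 28.2% of all genes. Their median was 0.95 in PVG and 0.85 in LEW. Of the 81 genes that fell in PVG, 34 also fell in LEW and 76 were negative there at both times, as were 33.3% of all genes, with medians of -0.66 in PVG and -0.42 in LEW. No gene was called in opposite directions in the 2 strains. The difference between the responses passed for 6 of 9005 probes (0.0666%).

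Ccl2 was the only one of the 6 with the larger measured response in PVG. Its log2 difference was 3.29 in PVG and 1.44 in LEW (PVG minus LEW 1.86, standard error 0.19, adjusted p = 0.00552). In LEW its signals were 8974 and 9784 in LEW-LPS ASCs, against 3712 and 3234 in LEW-C ASCs, so that the LEW controls lay above the PVG controls. The other five genes, Pla2g2a, Cxcl6, Mmp3, Sfrp2 and Pcp4, were undetected on both PVG-C arrays and were tested because both PVG-LPS arrays detected them. Their PVG responses are therefore measured against control signals at the background. The test compares these measured values with LEW, so that it gives no size for the difference. Among probes detected on all 4 PVG arrays 1 difference passed, that of Ccl2. Pla2g2a and Cxcl6 rose in both strains, at least 1.79-fold and at least 1.51-fold in PVG. In LEW Pla2g2a had 701 and 715 in LEW-LPS ASCs, against 71.2 and 72.0 in LEW-C ASCs, where the controls were undetected as well, as they were for Cxcl6. Mmp3, the stromelysin-1 gene, had 135 and 100.03 in PVG-LPS ASCs, against 56.0 and 68.7 in PVG-C ASCs, and did not pass in PVG (at least 1.44-fold, adjusted p = 0.0564), while it rose in LEW. Sfrp2, the gene of a secreted Wnt antagonist, and Pcp4, a calmodulin-binding protein gene, named because their difference passed, were at least 1.59-fold and at least 1.16-fold higher in PVG without passing there and had log2 differences of 3.16 and 2.19 in LEW, where the controls were detected. Without any 1 of the 4 PVG arrays no difference passed. G0s2 and Vcam1 rose in PVG and had 0.13 and -0.20 in LEW, but the differences did not pass (adjusted p = 0.0653 and 0.145). Mt1 and Ccl20, with 3.60 and 4.82 in PVG and 2.13 and 3.56 in LEW, did not differ past the threshold either (adjusted p = 0.0759 and 0.0825).

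**Figure D5:**
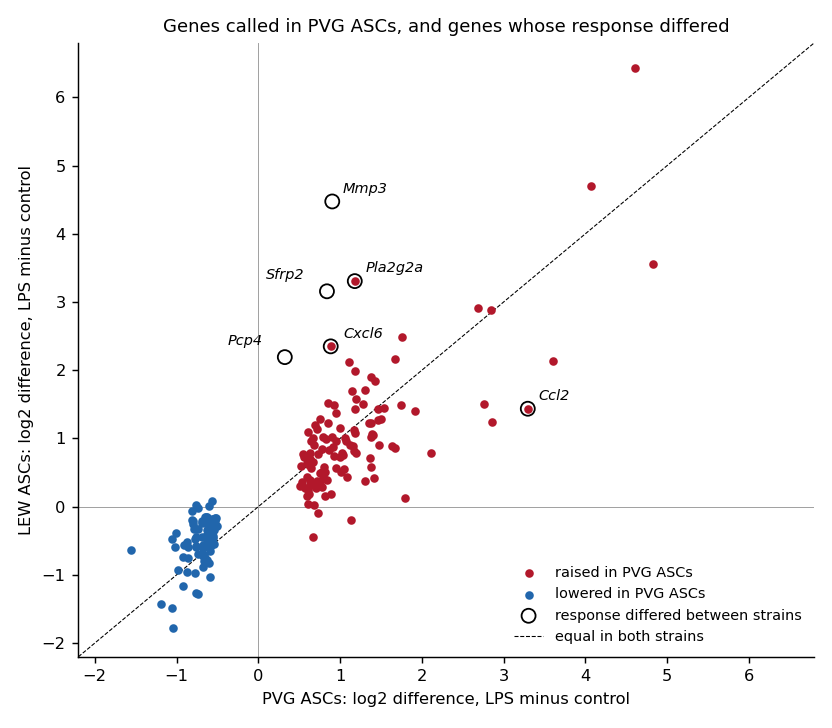
Log2 response to LPS in PVG ASCs (x axis) and in LEW ASCs (y axis) of the genes that passed the test in PVG, and circled, of those whose response differed between the strains. Points on the dashed diagonal have equal responses. Ccl2 (3.29 in PVG and 1.44 in LEW) lies below it. The 5 circled genes above it, Pla2g2a among them (1.18 and 3.31), were undetected on both PVG-C arrays. Their place on the x axis is the measured difference from control signals at the background, which gives no settled size.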

How the data were processed

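RNA of ASCs, pooled from 3 rats per array, was labelled as biotinylated cRNA and hybridised to Illumina RatRef-12 arrays. The authors deposited signal intensities, linear bead summaries of 22523 probes without background subtraction or normalization. Beside each intensity the authors deposited its detection p-value against the negative controls of that array. A second deposited table of intensities, normalized between arrays to equal quantiles, served as an alternative. Gene symbols were those of the deposited annotation, which names 13793 probes.

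Intensities were divided by each array's 75th percentile, brought back to the geometric mean of these percentiles, floored at 16 and expressed as log2. limma 3.58.1 (R 4.3.3) was fitted to all 8 arrays with 1 block per strain and time point and 1 LPS coefficient per strain (2 residual and 7.9 prior degrees of freedom), and probes passed at a p under 0.05 after Benjamini-Hochberg adjustment over the 9005 tested. The time point is the shared number that pairs an LPS and a control array, per the labels, which also give the same 3 rats as the source of all 4 conditions of a strain. An alternative was a 2-way analysis of variance on the 4 PVG arrays, with LPS and time point as factors and each probe's spread taken on its own. The paper's 2-way analysis of variance used the 8 arrays of both strains and was not run here. Single time points were counted at 1.5-fold. The procedure was tested on simulated data. Python 3.11.15 with numpy 2.4.6, pandas 2.3.3 and matplotlib 3.10.9 made the tables and figures.

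The 33 gene lists and 8 marker lists, and the genes to be named, were chosen with earlier results of these data known. Named by rule were the 15 passing genes that rose most and the 15 that fell most, up to 4 members of each list by smallest p, the LPS receptor complex, the 8 genes with the largest excess at either time point, and genes of the study's tables. Promoter sequences were those of RefSeq. Alternatives changed the block, background correction, scaling, floor, detection filter and threshold, or left out 1 array. No other array column was found, and the authors' qRT-PCR and cell assays were not analysed here. The number of arrays limits the precision.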

Additional observations from a re-analysis of the deposited data

Results flagged for a closer look

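The response to LPS passed limma's test of the difference between PVG and LEW ASCs for 6 probes, each of a named gene. PVG minus LEW was 1.86 on the log2 scale for Ccl2 (adjusted p = 0.00552). It was -3.57 for Mmp3 (adjusted p = 0.00141), -2.32 for Sfrp2 (adjusted p = 0.0189), -2.13 for Pla2g2a (adjusted p = 0.000981), -1.87 for Pcp4 (adjusted p = 0.00733) and -1.46 for Cxcl6 (adjusted p = 0.0243). Mmp3 had 1402 and 2380.2 in LEW-LPS ASCs, against 84.8 and 79.8 in LEW-C ASCs, and Sfrp2 had 116 and 143 in PVG-LPS ASCs, against 68.6 and 75.4 in PVG-C ASCs, with 644 and 1458 in LEW-LPS ASCs, against 104 and 114 in LEW-C ASCs. All PVG control arrays of these genes except those of Ccl2 were undetected. The PVG responses of these 5 were thus measured against the background, and their differences have no settled size. Among probes detected on all 4 PVG arrays 1 difference passed, that of Ccl2. None of the 6 passed without any 1 of the 4 PVG arrays.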

How the results depend on the processing

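Without the replicate block (no time block), 27 probes rose, 3 fell and the strains differed for 3, and all 30 of these rises and falls were among the 140 and 100. The PVG arrays alone gave 300 and 300, with 1 residual degree of freedom. The 2-way analysis of variance on the 4 PVG arrays, not the paper's own, gave 0 and 0, with 605 at an unadjusted p under 0.05 (1198 in limma). It also had 1 residual degree of freedom and shared no spread between probes, which leaves it little power to pass an adjusted threshold. With neqc 58 fell, 42 of them among the 100. Without the detection filter 283 rose, 266 fell and the strains differed for 170, and they differed for 1 with detection on all 4 PVG arrays and for 3 with detection p under 0.01. Leaving out 1 array gave 7 to 300 rises, 0 to 300 falls and 0 to 235 strain differences. Probes at 1.5-fold or more at 24 h were 404 higher and 370 lower with neqc, 120 lower with quantile normalization and 119 lower in the authors' normalized table, and at 48 h 436 higher and 357 lower with neqc. At a threshold of 2-fold, 51 were higher and 16 lower at 24 h, and 88 higher and 17 lower at 48 h. Of the 79 named genes that passed, 60 did with neqc, 67 with quantile normalization, 66 with an additive time block, 75 with normexp, 77 with an intensity trend and 79 with a floor of 64. The cause of these shifts was not tested.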
